A study of Mus musculus with 4 samples.

Results

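Dendritic cells grown from mouse bone marrow were compared for 8 genes of nitric oxide and arginine metabolism: Slc7a2, Nos2, Ass1, Asl, Ddah2, Arg1, Arg2 and Odc1. The genes were taken from a list of symbols, and their probes are the 9 whose transcript identifier maps to one of them, of 56605 probes and 23462 genes on the array. Odc1 had 2 probes and each other gene had 1. Femoral marrow of wild-type male C57BL/6J mice was grown for use on day 6 with GM-CSF at 10 ng/ml, in MEM that held 10% FBS. The 4 groups were medium alone, LPS at 100 ng/ml, LA at 20 mM, written L-(+)-LA in the labels, and LPS with LA, and the treatments lasted 4 h. The labels give neither a time for medium nor a pH for LA, nor the number of mice behind a culture. LPS is a bacterial cell wall component that activates dendritic cells through Toll-like receptor 4.

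Arginine is the shared substrate of nitric oxide synthases, which release nitric oxide and citrulline, and of arginases, which release urea and ornithine. Citrulline can be rebuilt into arginine by argininosuccinate synthase and argininosuccinate lyase, and ornithine can be turned into the polyamines by a pathway that begins with ornithine decarboxylase. In myeloid cells the inducible synthase Nos2 and arginase 1 are textbook markers of opposed activation states, and cationic amino acid transporters supply both with arginine.

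RNA was hybridised to single-colour arrays with 1 array per group, so no difference between groups has a replicate and none was tested. A level is the log2 of a probe's processed signal minus the log2 of that array's 75th percentile, a difference is a difference of levels, and 1 log2 unit, or 2-fold, on probes well above background on both arrays was the size counted as apart. The 298 probes printed in replicate had a median SD between spots of 0.051 to 0.054 on the log2 scale, and dim probes had more. All 4 arrays lay on 1 slide and were read in 1 scan, with 56.5% to 64.1% of spots well above background and the LPS array lowest. The 10 dendritic cell markers, Itgax, Flt3 and Zbtb46 among them, were well above background on every array, as were all 10 neutrophil markers and 9 of 10 macrophage and monocyte markers, so genes typical of other myeloid cells were present too. The same held for 9 of 10 mast cell, basophil and eosinophil markers. It also held for 5 of 10 lymphocyte and NK markers and 5 of 10 stromal and endothelial markers. Ms4a1 and Ncr1 of the lymphocyte list and Cdh5 and Lum of the stromal list were well above background on no array.

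Slc7a2 encodes a cationic amino acid transporter that imports arginine and is inducible in activated myeloid cells. Its processed signal, with the error that the scanner software gives a spot, was 562 ± 56 in medium, 5233 ± 523 with LPS, 161 ± 16 with LA and 162 ± 16 for the combination. That error describes 1 spot, not the spread between cultures. In levels these were 1.65, 4.91, 0.02 and 0.15. LPS alone was the high array, medium lay between, and both arrays with LA were low and close to each other. The LPS array was 9.57-fold above medium, a difference of 3.26 that ranked 80 from the highest among 13597 measured genes. LA alone was 3.10-fold below medium, and LPS with LA was 27.1-fold below LPS, a difference of -4.76 that ranked 38 from the lowest among 13629 genes. LPS with LA differed from LA alone by 0.13, against a spot SD of 0.12 for a difference at that level. The labels describe bulk cultures, so fewer cells of a type and less RNA per cell cannot be told apart here or below.

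Nos2 encodes the inducible nitric oxide synthase. Its processed signal was 545 ± 55 in medium, 4122 ± 412 with LPS, 312 ± 31 with LA and 294 ± 29 for the combination, and its levels were 1.61, 4.57, 0.98 and 1.01. The order was that of Slc7a2, with LPS far above the other arrays and the 2 arrays with LA at the bottom. Nos2 was 7.77-fold higher with LPS than in medium (difference 2.96, rank 109 of 13597) and 11.8-fold lower with LPS and LA than with LPS (difference -3.56, rank 110 from the lowest of 13629). Unlike Slc7a2, it did not reach 2-fold for LA against medium, where it was 1.55-fold lower. LPS with LA and LA alone lay 0.03 apart, within the spot SD of 0.10.

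Among the 7 genes that were measured on both arrays of every comparison, 3 were at least 2-fold higher with LPS than in medium and 0 were lower, where 8.14% of all measured genes were higher and 7.50% lower. For LA against medium 0 were higher and 3 lower, beside 3.12% and 3.32% of all genes. For LPS with LA against LPS 0 were higher and 4 lower, beside 11.5% and 12.5%. LPS with LA against LA had none of the 7 apart either way, where 0.906% of all genes were higher and 1.50% lower. LPS with LA against medium had 2 higher and 3 lower, beside 3.0% and 3.98%. The median difference of the 7 genes was 0.46, -0.63, -1.59, 0.03 and -0.60 in these 5 comparisons, and that of all measured genes was between -0.02 and 0.02. The comparisons share arrays: LPS enters both the first and the third, so its high values stand in both.

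**Figure D1:**
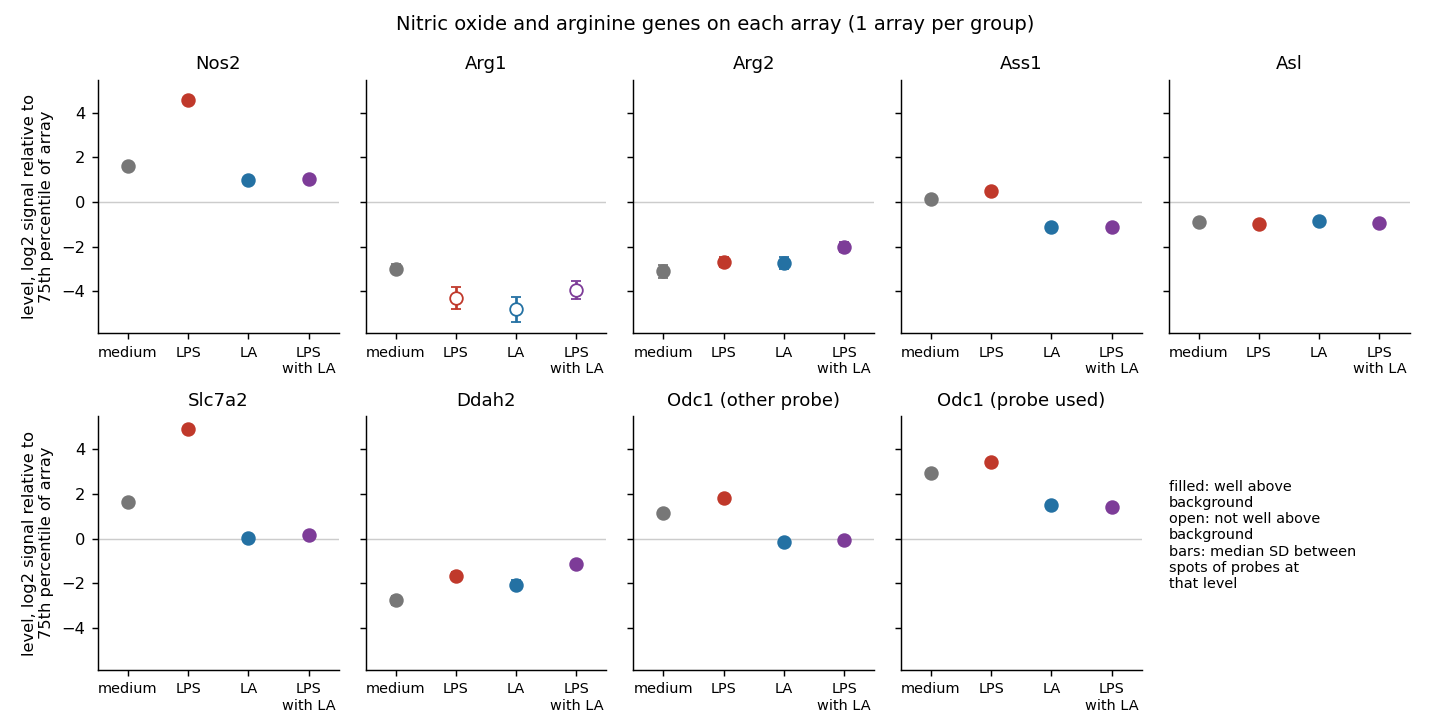
Level of each of the 9 probes on each array, in log2 units relative to the array's 75th percentile. Each point is 1 array, filled where the probe was well above background and open where it was not, and bars are the median SD between spots of replicated probes at that level. Slc7a2 and Nos2 are highest with LPS (4.91 and 4.57), Ass1 and both Odc1 probes are low on both arrays with LA, and Arg1 is filled in medium only.

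Ass1 and Asl catalyse the successive steps that return citrulline to arginine. Ass1, argininosuccinate synthase and the limiting step of that route, had signals of 194 ± 20 in medium, 242 ± 24 with LPS, 71.9 ± 7.5 with LA and 67.5 ± 7 for the combination, and levels of 0.12, 0.48, -1.14 and -1.11. Medium and LPS were high and both arrays with LA low. LPS was 1.29-fold above medium, short of 2-fold. LA was 2.38-fold below medium and LPS with LA 3.01-fold below LPS, and the 2 arrays with LA were 0.03 apart. After normexp the differences from medium were -0.90 for LA and -0.87 for LPS with LA, short of 2-fold. Asl, argininosuccinate lyase, had signals of 95.2 ± 10, 87.5 ± 9.6, 86.3 ± 9 and 75.5 ± 7.8 in the same order and levels of -0.91, -0.99, -0.87 and -0.95. None of its 5 differences passed 0.08 in size, below the spot SD of 0.14 to 0.16, so its 4 arrays have no order. The 2 enzymes of the one route thus differed in pattern: Ass1 spanned over 1 log2 unit and Asl did not.

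Odc1 encodes ornithine decarboxylase, which makes putrescine from ornithine. Its brighter probe had signals of 1393 ± 139 in medium, 1863 ± 186 with LPS, 453 ± 45 with LA and 390 ± 39 for the combination, and levels of 2.96, 3.42, 1.52 and 1.42. The pattern was that of Ass1, with medium and LPS high and both arrays with LA low. LPS was 1.37-fold above medium, LA was 2.72-fold below medium and LPS with LA was 4.00-fold below LPS. The other Odc1 probe gave levels of 1.16, 1.80, -0.13 and -0.06, with differences of 0.64, -1.29 and -1.86 in the same comparisons. Both probes placed the arrays without LA above those with it, while LPS with LA against LA was -0.10 on one and 0.07 on the other and so had no direction.

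Arg1 encodes arginase 1, the cytosolic enzyme that releases ornithine and urea. Its signal was 22.6 ± 3.6 in medium, 8.91 ± 3.9 with LPS, 5.66 ± 2.3 with LA and 9.53 ± 2.2 for the combination. Only the medium array was well above background, so the other 3 arrays give no measured difference and have no order among themselves. Folds set the medium signal against the dim signal itself or, where higher, the faintest signal that the dim array still counted as well above background. Only in the latter case is the fold a minimum, and then only with the brighter signal taken as exact. Arg1 was below its medium level by at least 1.43-fold with LPS and at least 2.26-fold with LA. The spot SDs of these differences were 0.53 and 0.59 log2 units, and the former is no smaller than the minimum for LPS. For the combination Arg1 was 1.93-fold lower, a ratio to the dim signal itself and not a minimum (spot SD of the difference 0.45). Arg2, the mitochondrial arginase, had signals of 20.7 ± 3.6, 27.1 ± 4.7, 23.9 ± 3.3 and 35.7 ± 4.1 and levels of -3.11, -2.68, -2.72 and -2.03. LPS with LA was the highest array and medium the lowest. LPS with LA exceeded medium 2.11-fold (difference 1.08, spot SD 0.37), but by 0.41 log2 units after normexp, which ends that call. The differences of LPS against medium (0.43) and LA against medium (0.39) were near the spot SDs of 0.37 and 0.39, so the lower 3 arrays were not set apart. Against LPS alone, LPS with LA was 0.65 higher, which became 1.07 under the authors' deposited table and then counted as 2-fold.

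Ddah2 encodes a dimethylarginine dimethylaminohydrolase, which clears methylated arginines that inhibit nitric oxide synthases. Its signal was 26.4 ± 3.7 in medium, 55 ± 6.4 with LPS, 37.9 ± 4.3 with LA and 66.3 ± 6.9 for the combination, and its levels were -2.76, -1.66, -2.06 and -1.14. Each treated array was above medium, and LPS with LA was highest. LPS was 2.14-fold above medium, LA was 1.62-fold above medium and LPS with LA 3.08-fold above medium, a difference of 1.62 that ranked 71 from the highest of 14519 genes. For LPS against medium the difference of 1.10 was 0.98 when arrays were scaled on probes detected (well above background) on all 4 arrays, 0.86 under the authors' table and 0.48 after normexp, so the 2-fold count rests on the scaling and the background correction. The difference of LPS with LA against medium was 0.78 after normexp, again short of 2-fold. LPS with LA was 0.52 above LPS and 0.93 above LA, beside spot SDs of 0.22 and 0.24.

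**Figure D2:**
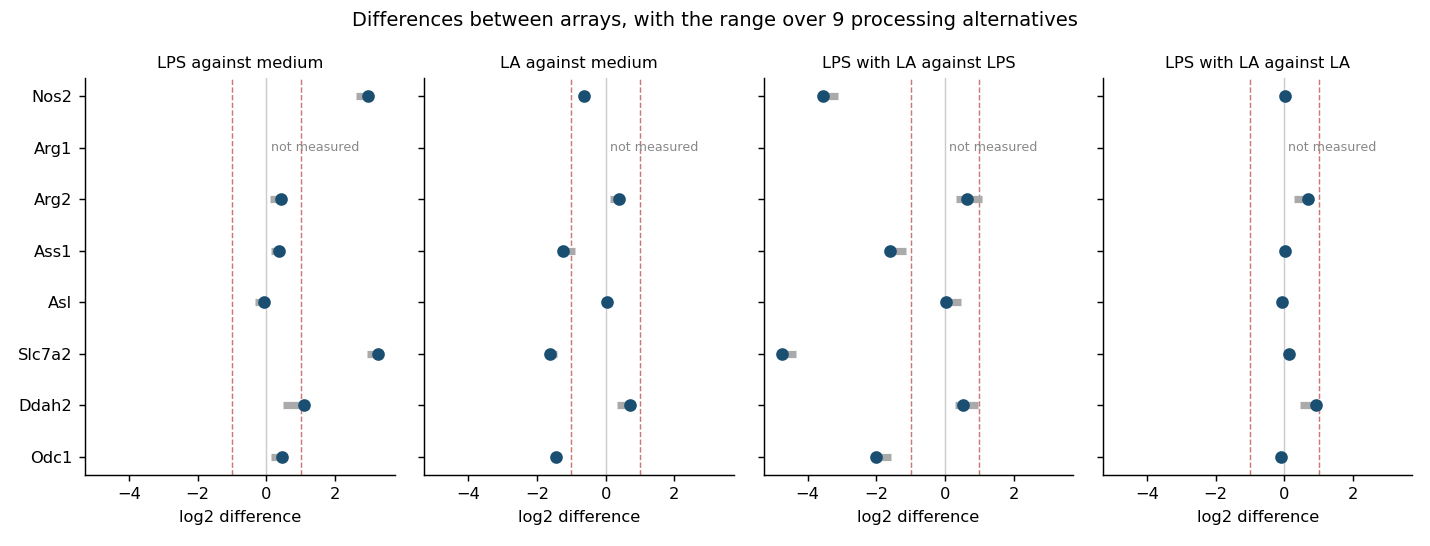
Log2 difference of each gene in 4 comparisons (points), with the range over 9 alternative ways of processing the same arrays (grey bars); dashed lines mark 2-fold. The range for Nos2 with LPS runs from 2.62 to 3.02 and for LPS with LA against LPS from -3.66 to -3.13, while that of Ddah2 with LPS, 0.48 to 1.16, crosses 2-fold. Arg1 has no measured difference.

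The LA difference with LPS present minus the LA difference without it was -2.93 for Nos2 and -3.13 for Slc7a2. These were 2 of 7 genes at least 2-fold in that quantity, both lower, where 8.97% of all measured genes were higher and 9.70% lower. The other 5 were small beside them: -0.56 for Odc1, -0.34 for Ass1, -0.17 for Ddah2, 0.01 for Asl and 0.27 for Arg2. Nos2 and Slc7a2 were thus separated from Ass1 and Odc1 by the LPS array, where the former stood far above medium and the latter less than 2-fold above it. On the LA array the grouping was another one, with Slc7a2, Odc1 and Ass1 past 2-fold below medium and Nos2 not. In all 4 LPS with LA lay within 0.13 of LA alone, as it did in Asl (-0.08). Small differences were common in that comparison. Of 14903 measured genes 4859 lay from -0.25 to 0 and 4515 from 0 to 0.25, so this does not set the 4 apart.

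**Figure D3:**
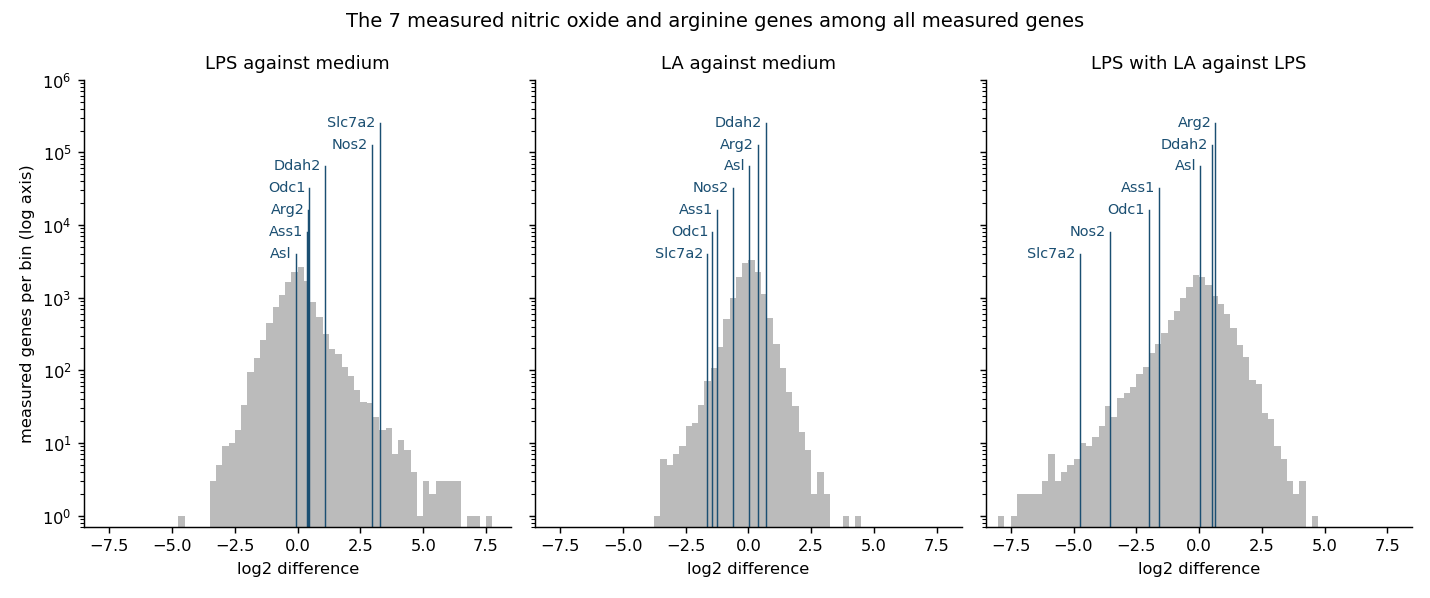
Number of measured genes per bin of log2 difference (grey bars, log axis) in 3 comparisons, with vertical lines at the 7 measured genes; line heights only separate the labels. Slc7a2 (3.26) and Nos2 (2.96) lie in the right tail for LPS against medium and at -4.76 and -3.56 in the left tail for LPS with LA against LPS, and Asl lies near 0 in each panel.

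The scaling of the arrays bears on how the calls divide. Of all genes called for LPS against medium, 52.0% were higher here, 40.9% with scaling on probes detected on all 4 arrays and 30.2% in the authors' table, which shifts the median of all genes by -0.24. Median scaling and normexp background correction went the other way, to 57.6% and 68.3%. For LPS with LA against LPS the share was 48.0% here, 61.0% and 76.7% under the first pair, with a median of 0.434 in the authors' table, and 39.5% and 36.6% under the second. The authors' table gave 65.7% against 48.4% for LA against medium, 65.6% against 43.0% for LPS with LA against medium and 70.4% against 48.0% for the difference of the LA differences, for which scaling on probes detected on all 4 arrays gave 60.4%. Normexp gave 30.4%, 26.9% and 36.8% in these 3 cases. Of the 7 genes, the split for LPS with LA against LPS became 1 higher and 4 lower in the authors' table, through Arg2.

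Marker sums moved with the LA arrays as well. The summed linear level of the 10 dendritic cell markers was 280 in medium, 314 with LPS, 217 with LA and 205 for the combination, in multiples of each array's 75th percentile. That of the macrophage and monocyte markers was 86.2, 119, 68.4 and 63.1, and that of the neutrophil markers was 673, 764, 876 and 905. Dendritic cell and macrophage sums were thus lowest, and the neutrophil sum highest, on the 2 arrays where Slc7a2, Nos2, Ass1 and Odc1 were lowest. Linear sums weigh bright genes most, and single markers did not all follow them. For LA against medium 1 of 10 dendritic cell markers was at least 2-fold higher and 1 lower. Of 10 macrophage and monocyte markers 1 was higher and 2 lower, and of 10 neutrophil markers 1 was higher and 0 lower. Of all genes 3.12% were higher and 3.32% lower there. For LPS with LA against LPS more markers moved: 0 of 10 dendritic cell markers were higher and 5 lower, and 5 of 10 neutrophil markers were higher and 0 lower. Of 9 measured macrophage and monocyte markers 1 was higher and 3 lower. Of all genes 11.5% were higher and 12.5% lower in that comparison. Cd74, a bright dendritic cell marker, had levels of 6.88 in medium and 7.01 with LA. The largest ratio between 2 arrays was 1.96-fold, for the mast cell, basophil and eosinophil markers (56.4 in medium and 111 with LPS and LA). Sums of the lymphocyte (6.46 to 7.56) and stromal markers (2.58 to 4.37) were small. The part of other cells in the results was not tested.

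RefSeq's promoter table for GRCm38.p6 held 3 of the 8 genes, Ass1, Odc1 and Ddah2. The 250 bases before their starts are shown because Ass1 and Odc1 had nearly the same pattern over the arrays and Ddah2 differed from both, lying above medium on the arrays with LA. Gch1, the cofactor gene described below, is added as a gene with a pattern near that of Nos2. Sequences read 5′ to 3′ on the gene's strand and end 1 base before the start. Capitals mark every match, on either strand, to the HIF-1 cores ACGTG and GCGTG, the E-box CACGTG, the CRE core TGACG or the NF-kB consensus.
Ass1, chr2:31470020-31470269, plus strand: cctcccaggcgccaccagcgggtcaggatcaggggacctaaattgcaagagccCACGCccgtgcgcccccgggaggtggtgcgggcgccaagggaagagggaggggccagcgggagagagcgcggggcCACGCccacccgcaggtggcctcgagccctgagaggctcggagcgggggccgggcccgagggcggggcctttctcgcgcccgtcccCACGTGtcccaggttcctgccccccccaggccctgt
Odc1, chr12:17544623-17544872, plus strand: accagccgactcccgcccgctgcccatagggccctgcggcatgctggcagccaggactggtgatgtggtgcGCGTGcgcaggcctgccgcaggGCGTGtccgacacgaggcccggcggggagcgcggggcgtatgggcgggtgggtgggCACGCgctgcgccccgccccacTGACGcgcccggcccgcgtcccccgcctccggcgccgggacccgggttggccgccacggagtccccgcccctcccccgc
Ddah2, chr17:35058785-35059034, plus strand: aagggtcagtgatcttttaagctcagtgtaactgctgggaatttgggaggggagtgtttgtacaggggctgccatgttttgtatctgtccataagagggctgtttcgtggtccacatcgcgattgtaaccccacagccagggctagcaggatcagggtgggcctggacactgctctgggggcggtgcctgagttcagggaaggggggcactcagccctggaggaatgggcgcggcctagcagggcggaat
Gch1, chr14:47189414-47189663, minus strand: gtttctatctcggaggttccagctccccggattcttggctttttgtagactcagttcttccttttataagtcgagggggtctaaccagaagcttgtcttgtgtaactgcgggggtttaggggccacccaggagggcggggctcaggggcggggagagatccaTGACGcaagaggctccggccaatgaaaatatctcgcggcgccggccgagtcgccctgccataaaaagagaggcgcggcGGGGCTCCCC
The Ass1 window held the E-box with its first base 36 bases before the start, where ACGTG is read on both strands, and GCGTG on the opposite strand with first bases 197 and 122 before the start. The Odc1 window held GCGTG 179, 157 and 101 bases before the start, the last on the opposite strand, and TGACG at 79. The Gch1 window held TGACG at 88 and the NF-kB consensus in the 10 bases next to the start, and the Ddah2 window had no match to these letters. Over 32851 promoter windows of the same length ACGTG occurred in 16.6%, GCGTG in 28.2%, CACGTG in 6.02%, TGACG in 17.8% and the NF-kB consensus in 7.25%. The Ass1 and Odc1 windows were rich in G and C, at 75.6% and 80.0%, against 58.0% for Ddah2 and 59.2% for Gch1. The shares over all windows were not matched for G and C content, so they are no direct yardstick for these windows. A match describes the letters and does not show a site in use.

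The genes whose 4 levels, centred on their mean, lay nearest to each pattern were taken from 12191 genes well above background on all arrays. Distances are Euclidean, in log2 units, over 4 arrays. Nearest to Nos2 were Il1rn (0.14), Marchf5 (0.15) and Irgm2 (0.16). Il1rn, the interleukin 1 receptor antagonist, had levels of 3.31 in medium, 6.18 with LPS, 2.79 with LA and 2.74 for the combination. Nearest to Slc7a2 were Phf11d (0.29), Zc3h12c (0.31) and Clec4e (0.34), and Clec4e, a C-type lectin receptor of activated myeloid cells, had levels of 0.81, 3.59, -1.09 and -0.96. Nos2 and Slc7a2 were 1.12 apart, which placed Slc7a2 240th from Nos2.

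Nearest to Ass1 were Lin54 (0.06), H2-Aa (0.11) and Pgam1 (0.13). H2-Aa is a class II antigen presentation gene and is also on the dendritic cell marker list above, with levels of 5.91 in medium, 6.21 with LPS, 4.75 with LA and 4.69 for the combination. Pgam1, a glycolytic enzyme, had 7.13, 7.50, 5.73 and 5.81. Nearest to Odc1 were Slc12a4 (0.07), Mif (0.08) and Chrne (0.09), and Mif, a cytokine-like protein, had 5.07, 5.43, 3.61 and 3.48. Ass1 and Odc1 were 0.32 apart, which placed Odc1 61st from Ass1. Nearest to Arg2 were Slc38a6 (0.11), Drc3 (0.14) and Zswim2 (0.18), and nearest to Ddah2 were Tyms-ps (0.12), an annotated pseudogene, L3mbtl3 (0.24) and Tspan18 (0.30). Arg1 was not well above background on enough arrays, and Asl ranged over less than 1 log2 unit, so neither was given neighbours.

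A list of 53 other genes of the pathway was set beside the 8, and 52 of them had a probe. For LPS against medium 3 were at least 2-fold higher and 2 lower of 36 measured, and for LA against medium 1 was higher and 4 lower of 37. For LPS with LA against LPS 5 were higher and 7 lower of 35, for LPS with LA against LA 2 were higher and 1 lower of 39, and for LPS with LA against medium 2 were higher and 4 lower of 37. Their medians were 0.02, 0.20, 0.14, -0.09 and 0.09. The background shares are those given above, for these counts and for those of the smaller groups below. The split for LPS with LA against LPS depends on the scaling, with 3 higher and 8 lower after median scaling, 6 and 4 with scaling on probes detected on all 4 arrays 10 and 4 in the authors' table and 0 and 5 after normexp. After median scaling 0 were higher and 4 lower for LA against medium.

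Of the other arginine carriers, 1 of 3 measured was 2-fold lower for LPS with LA against LPS. That count depends on the probe: Slc3a2, singled out after its values were seen, gave -0.16 on the brighter probe and -1.01 on the other. Slc7a1, the constitutive cationic amino acid transporter, had levels of -0.05 in medium, 0.24 with LPS, -0.22 with LA and -0.90 for the combination. It was lowest with LPS and LA, 2.20-fold below LPS, with alternatives from -1.25 to -0.70 that lose the call. Slc7a7, a subunit of a cationic amino acid exchanger, had -0.07, 0.13, 0.64 and 0.48 and was not 2-fold apart. Slc7a6, its relative, was not well above background with LPS. It was 3.01-fold higher with LPS and LA than with LPS, a ratio to the dim LPS signal and not a minimum (spot SD 0.38).

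Of the other synthases and regulators, 1 of 5 measured was 2-fold higher with LPS than in medium. That gene was Cav1, caveolin 1, which binds and restrains the endothelial synthase. Its levels were -0.31 in medium, 1.91 with LPS, -2.46 with LA and -2.93 for the combination, so it was high with LPS and low on both arrays with LA. It was 4.64-fold higher with LPS than in medium, 4.43-fold lower with LA than in medium and 28.6-fold lower with LPS and LA than with LPS. Its other probe gave differences of 2.43, -2.32 and -4.02. The remaining synthases were dim: Nos3, the endothelial form, had levels of -2.64, -1.85, -1.59 and -2.03 and was 2.07-fold higher with LA than in medium (spot SD of the difference 0.26), and Nos1, the neuronal form, was not well above background with LPS. Nosip, which interacts with the endothelial synthase, had levels of -0.34, -1.27, 0.13 and -0.08 and was 2.29-fold higher with LPS and LA than with LPS. Nostrin, a trafficking adaptor of the endothelial synthase, had -2.51, -2.46, -3.03 and -1.63 and was 2.63-fold higher with LPS and LA than with LA. Under the alternatives these calls are lost: the Nostrin difference ran from 0.55 to 1.43, that of Nos3 for LA against medium from 0.46 to 1.20 and that of Nosip from 0.77 to 1.62.

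Tetrahydrobiopterin is a cofactor that nitric oxide synthases need, and Gch1, GTP cyclohydrolase 1, is the first and limiting enzyme of its synthesis. The levels of Gch1 were 0.48 in medium, 2.73 with LPS, -0.80 with LA and -0.99 for the combination. It was high with LPS and low on both arrays with LA, as Slc7a2 and Nos2 were. It was 4.73-fold higher with LPS than in medium, 2.44-fold lower with LA than in medium and 13.2-fold lower with LPS and LA than with LPS, and stood 77th from Nos2 at a distance of 0.67. The LA difference ran from -1.35 to -0.84 over the alternatives and so is short of 2-fold in some. Of the 5 measured cofactor genes it was the 1 higher with LPS and the 1 lower for LPS with LA against LPS. Pts, the next enzyme of the synthesis, had 0.12, -0.22, 0.49 and 0.44 and was not 2-fold apart.

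Soluble guanylate cyclase is the receptor of nitric oxide, and its genes were dim. Gucy1a2, the brightest by mean level, was well above background on both arrays with LA only. It was at least 3.12-fold higher with LA than in medium. With LPS and LA it was 2.75-fold higher than with LPS, a ratio to the dim LPS signal and not a minimum (spot SD 0.40). Gucy1b1, the obligate beta subunit, which was singled out after its values were seen, was the reverse. It was well above background in medium and with LPS only, at least 3.63-fold lower with LA than in medium and at least 2.22-fold lower with LPS and LA than with LPS. The second probe of Gucy1a2 was not well above background on any array.

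**Figure D4:**
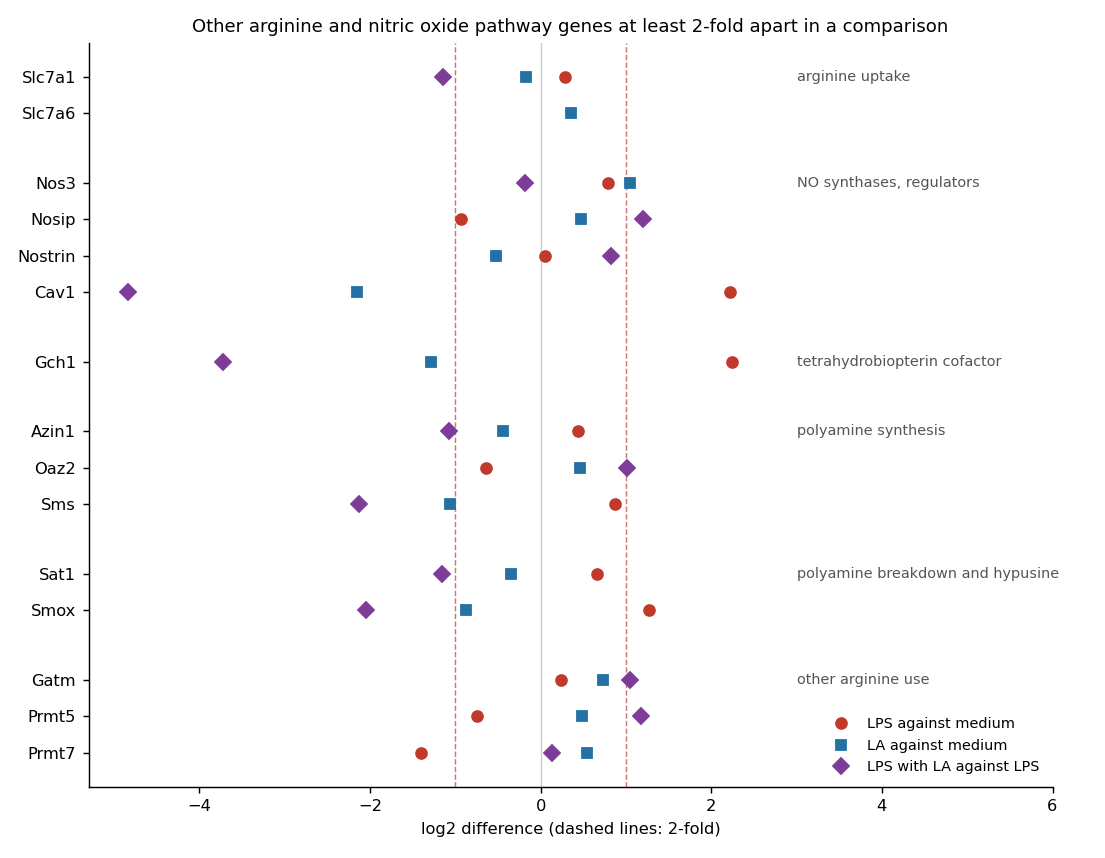
Log2 difference of named other pathway genes that were at least 2-fold apart in any of 5 comparisons, for LPS against medium (circles), LA against medium (squares) and LPS with LA against LPS (diamonds), grouped by role, with dashed lines at 2-fold. Cav1 (2.22, -2.15 and -4.84) and Gch1 (2.24, -1.29 and -3.72) are the 2 genes past 2-fold in all 3, and a missing symbol marks a difference with an array not well above background.

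Downstream of ornithine, 1 of 6 measured genes of polyamine synthesis was higher and 2 lower for LPS with LA against LPS. Sms, spermine synthase, had levels of 0.45 in medium, 1.33 with LPS, -0.60 with LA and -0.80 for the combination, and was 4.37-fold lower with LPS and LA than with LPS and 2.08-fold lower with LA than in medium. Its other 2 probes gave -1.68 and -1.94 for the former and -1.16 and -0.30 for the latter. Azin1, the antizyme inhibitor that protects ornithine decarboxylase from degradation, had 0.54, 0.98, 0.11 and -0.09 and was 2.10-fold lower with LPS and LA than with LPS. Oaz2, an antizyme that directs ornithine decarboxylase to degradation, had 2.23, 1.59, 2.70 and 2.60 and was 2.02-fold higher in that comparison. Over the alternatives the difference of Azin1 ran from -1.18 to -0.65 and that of Oaz2 from 0.87 to 1.44, so both calls are lost under some processing, as is that of Sms for LA against medium (-1.12 to -0.80). Odc1 stayed at least 2-fold lower in that comparison, from -2.11 to -1.58.

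Of 7 genes of polyamine breakdown and hypusine formation, 2 were lower for LPS with LA against LPS and 0 higher. Of all measured genes 12.5% were lower and 11.5% higher there. Smox, spermine oxidase, had levels of 3.19 in medium, 4.45 with LPS, 2.31 with LA and 2.40 for the combination. It was 2.41-fold higher with LPS than in medium and 4.15-fold lower with LPS and LA than with LPS, and its other probe gave 0.74 and -2.18. The former difference ran from 0.91 to 1.33 over the alternatives. Sat1, the acetyltransferase that starts polyamine catabolism, had 6.72, 7.37, 6.37 and 6.21 and was 2.24-fold lower with LPS and LA than with LPS, while its other probe gave -0.48 and its alternatives ran from -1.27 to -0.74. Smox and Sat1 were highest with LPS, and both arrays with LA lay below the LPS array. The other Sat1 probe had levels of 2.52 in medium, 3.06 with LPS, 2.42 with LA and 2.57 for the combination, so there the arrays with LA lay near medium.

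Of the urea cycle and ornithine genes, Oat, ornithine aminotransferase, had levels of 1.66, 1.45, 1.15 and 1.09 and was not 2-fold apart. Aldh18a1, singled out after its values were seen, was well above background with LPS only and at least 3.20-fold higher there than in medium. Among other users of arginine, 2 of 7 were higher for LPS with LA against LPS: Gatm, which makes the creatine precursor (2.07-fold), and the arginine methyltransferase Prmt5 (2.26-fold). The second probe of each was not well above background with LPS and gives no measured value there, and both calls are lost under some alternatives (0.54 to 1.47 and 0.69 to 1.60). Prmt7, another methyltransferase, was 2.63-fold lower with LPS than in medium, with alternatives from -1.63 to -0.38, and 2 of its 3 probes gave -1.40 and -1.05 there, while the third was not well above background with LPS. The probe used was low with LPS and LA too, with differences of -1.81 from LA and -1.27 from medium. The other probes gave -0.25 and -0.67 from medium, and the only measured value from LA among them was -0.88.

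Lists of other gene programmes, chosen with earlier results of these data known, give the setting in which these values stood. All 10 early inflammatory genes were at least 2-fold higher with LPS than in medium, from Irf1 (3.06) to Cxcl10 (7.70), and all 10 were lower with LPS and LA than with LPS. For LA against medium 6 of them were lower, with Cxcl10 at -2.31, and Il1b was at 0.24. With LPS the difference of Nos2 (2.96) was below, and that of Slc7a2 (3.26) above, the smallest in that list. Of 12 HIF-1 target genes, 0 were higher and 1 lower with LPS, 9 were lower with LA than in medium with a median of -1.79, and 10 were lower with LPS and LA than with LPS. Beside these lists, 8.14% of all genes were higher and 7.50% lower with LPS than in medium. With LA 3.32% were lower than in medium, and 12.5% were lower with LPS and LA than with LPS. Egln3, a prolyl hydroxylase that hypoxia induces, had levels of 3.99 in medium, 3.53 with LPS, 0.66 with LA and 0.50 for the combination. Ass1 and Odc1, like Egln3, were low on both arrays with LA and within 2-fold of medium with LPS. Of 10 measured genes of alternatively activated macrophages, a list that arginase 1 is usually read with, 0 were apart for LA against medium, from Ccl22 (-0.52) to Tfrc (0.40). Of all genes 3.12% were higher and 3.32% lower there, so 0 of 10 does not set the list apart. With LPS 2 of the 10 were higher and 0 lower, beside 8.14% and 7.50% of all genes. For LPS with LA against LPS 0 were higher and 3 lower, beside 11.5% and 12.5%. Ccl17, a chemokine on that list, was 8.31-fold higher with LPS than in medium and 6.81-fold lower with LPS and LA than with LPS, and Alox15, a lipoxygenase, was 1.37-fold lower and 1.99-fold higher in the same comparisons.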

How the data were processed

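Gene expression of 4 cultures was read on 4 arrays. Deposited spot intensity is the linear processed signal, with background subtracted, of Feature Extraction, version 12.0.3.1 per the file headers and 11.5.1.1 per the submitters' processing notes. The authors also deposited a table of scaled intensities for 31529 spots, which matches the processed signal multiplied by 1 factor for each array. Its scaling method is not given in the sources used here.

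Of 59305 spots that were not controls, 129 to 154 per array were left out as outliers, 0 were saturated, spots of a probe were averaged, and a gene took its brightest probe. Probes were named by transcript identifier through a RefSeq table (GRCm38.p6, while the array header names mm9), where 33767 of 56605 probes had 1 symbol and 0 had several. Levels were scaled to the 75th percentile (179, 174, 158 and 146 for medium, LPS, LA and LPS with LA). Depth is not defined for arrays, and their number limits the precision. With 1 array per group no test was run.

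The genes and lists were chosen with earlier results of these data known. Named genes were the 8, pathway genes measured at least 2-fold apart in any comparison or else the brightest of a sub-list, the 3 nearest patterns per gene, and the extremes of 3 reference lists. The promoters, motifs and Gch1 as their companion were chosen after values were seen. Amd1 had no probe, and some genes that the rule names are not reported here, though the counts include them. Normexp (offset 50), planned on mean spot signals, used median spot signals instead. The 9 alternatives were scaling by the median, scaling on probes detected on all 4 arrays, quantile normalization, the authors' table, normexp, dim probes kept, only probes detected on all 4 arrays, averaging a gene's probes, and outlier spots kept. Tools were R 4.3.3, limma 3.58.1, Python 3.11.15, matplotlib 3.10.9, pandas 2.3.3 and numpy 2.4.6.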

Additional observations from a re-analysis of the deposited data

Results flagged for a closer look

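For 9 genes the 2 arrays of one contrast moved one way and those of the matching contrast the other way, and with 1 array per group none of these differences was tested. Under LPS without and with LA, the 2 differences lay 0.56 apart for Odc1 (0.46 and -0.10), 0.97 for Slc7a1 (0.29 and -0.68), 1.23 for Nos3 (0.79 and -0.44) and 2.69 for Cav1 (2.22 and -0.47, with 0.73 with LA on its other probe). They lay 2.43 apart for Gch1 (2.24 and -0.19), 0.63 for Azin1 (0.44 and -0.19), 1.07 for Sms (0.87 and -0.20) and 0.81 for Sat1 (0.66 and -0.16). Under LA without and with LPS they lay -1.34 apart for Nostrin (-0.52 and 0.82). The second value was within 0.20 of 0 for Odc1, Gch1, Azin1, Sms and Sat1, so there the opposite sign rests on small differences. For LPS with LA against LA the other probes gave 0.07 for Odc1, 0.15 for Sat1, and 0.06 and -0.53 for Sms.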

How the results depend on the processing

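Of 17 differences of single genes at least 2-fold apart, 146 of 153 alternative values stayed at least 2-fold the same way. The 7 others were Ddah2 for LPS against medium (0.98, 0.86 and 0.48, as given above) and, after normexp, Ass1 for LA against medium (-0.90) and, for LPS with LA against medium, Arg2 (0.41), Ass1 (-0.87) and Ddah2 (0.78). None of these 17 differences changed sign under an alternative. Of 108 alternative counts 94 stayed within 1.5 times. Normexp took the 8 genes from 5 to 2 apart for LPS with LA against medium, and the other pathway genes to 3 for LPS against medium, 1 for LA against medium, 5 for LPS with LA against LPS, 0 for LPS with LA against LA, 1 for LPS with LA against medium and 3 for the difference of the LA differences. With no filter on dim probes these were 13, 15, 19, 5, 13 and 18, and the authors' table gave 5 for the last. More genes enter without the filter, and for the other settings the cause was not tested. For the other pathway genes, 3 were higher and 5 lower in the difference of the LA differences, 3 and 3 after quantile normalization and 3 and 2 in the authors' table. No paired analysis was possible because each group has 1 array, and no replicate could be left out. Arg1, Arg2, Ddah2 and Nos3 are limited by signals near background.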
